A study of Homo sapiens with 6 samples.

Results

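The genes described are the 10 receptors of activin, BMP and TGF-beta listed by name: the type I receptors ACVR1, ACVR1B, BMPR1A, BMPR1B and TGFBR1, the type II receptors ACVR2A, ACVR2B, BMPR2 and TGFBR2, and the type III receptor TGFBR3. Each name matched 1 of the 40396 Ensembl gene IDs in the deposited table, and all 10 had a mean of at least 0.5 FPKM, fragment counts scaled to gene length and to the library total, and were tested. Definitive endoderm (DE) differentiation of H1, 1 established human embryonic stem cell line, was followed by RNA-seq of mRNA on day 3. Both groups of 3 libraries received 50 ng/mL activin A for all 3 days and for the first 24 h also 2.5 µM CHIR99021, which activates Wnt signaling, on Matrigel-coated plates. The control group received DMSO, and the other group 0.5 µM saracatinib (SAR), known as an inhibitor of Src family kinases, throughout. The paper reports that at this dose Src phosphorylation was not effectively inhibited, while phosphorylation of focal adhesion kinase was lower at some sites. The libraries carry separate sample labels, and it is not stated that they came from separate cultures, so p-values measure the spread between these libraries.

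Ligands of the TGF-beta superfamily bring together type I and type II receptors, both transmembrane serine/threonine kinases. The type II kinase phosphorylates the type I receptor, which then phosphorylates SMAD2 and SMAD3 downstream of activin, nodal and TGF-beta, or SMAD1, SMAD5 and SMAD9 downstream of BMPs. Activin and nodal use ACVR1B with ACVR2A or ACVR2B, and nodal also needs an EGF-CFC co-receptor such as TDGF1. BMPs use ACVR1, BMPR1A or BMPR1B with BMPR2, ACVR2A or ACVR2B, and TGF-beta uses TGFBR1 with TGFBR2. TGFBR3, also called betaglycan, has no kinase and presents ligands such as TGF-beta and inhibin. Activin A in the culture medium is the inducer of DE in this protocol, so that its receptors are the entry point of the signal.

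BMPR2 was the 1 receptor whose level differed by more than 2-fold, and it was lower with SAR. TGFBR2 was lower and ACVR1B and TGFBR3 were higher by smaller factors, close to the threshold of the test. The other 6 receptors did not pass the test on the FPKM as deposited. The promoters of the 4 receptors that passed are shown because they cover both directions of change. They run from 250 bases before to 50 bases after a RefSeq transcription start on GRCh38.p14, 5′ to 3′ on the strand of the gene. Where RefSeq gave several starts, the nearest to the start of the gene in GENCODE 29 was taken. Capitals mark every match, on either strand, to the GC box GGGCGG, to CCAAT, to the TEAD core GGAATG and to the GC-rich SMAD site GGCGCC. BMPR2 lies at chr2:202376077-202376376 (plus strand), TGFBR2 at chr3:30606351-30606650 (plus strand), ACVR1B at chr12:51951449-51951748 (plus strand) and TGFBR3 at chr1:91886102-91886401 (minus strand). The TGFBR3 start lies 20184 bases from the start of the gene in GENCODE 29, that of BMPR2 609 bases, and those of TGFBR2 and ACVR1B 99 and 32 bases.
BMPR2: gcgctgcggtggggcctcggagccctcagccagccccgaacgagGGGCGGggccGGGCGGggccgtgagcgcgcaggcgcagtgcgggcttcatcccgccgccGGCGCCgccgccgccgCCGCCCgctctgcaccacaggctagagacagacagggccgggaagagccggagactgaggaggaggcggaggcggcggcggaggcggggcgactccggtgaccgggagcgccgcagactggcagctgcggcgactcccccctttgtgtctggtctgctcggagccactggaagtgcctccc
TGFBR2: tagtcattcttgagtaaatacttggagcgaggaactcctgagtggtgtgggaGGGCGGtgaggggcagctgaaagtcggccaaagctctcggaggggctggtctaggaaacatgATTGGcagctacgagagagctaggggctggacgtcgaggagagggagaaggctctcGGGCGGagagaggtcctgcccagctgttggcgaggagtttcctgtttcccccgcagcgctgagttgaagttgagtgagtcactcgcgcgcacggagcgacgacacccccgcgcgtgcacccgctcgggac
ACVR1B: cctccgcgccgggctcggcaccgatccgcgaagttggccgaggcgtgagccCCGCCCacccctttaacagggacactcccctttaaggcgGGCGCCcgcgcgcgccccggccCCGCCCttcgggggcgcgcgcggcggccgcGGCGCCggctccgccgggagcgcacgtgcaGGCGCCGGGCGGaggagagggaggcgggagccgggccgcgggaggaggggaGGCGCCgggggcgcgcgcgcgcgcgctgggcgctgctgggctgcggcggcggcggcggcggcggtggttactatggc
TGFBR3: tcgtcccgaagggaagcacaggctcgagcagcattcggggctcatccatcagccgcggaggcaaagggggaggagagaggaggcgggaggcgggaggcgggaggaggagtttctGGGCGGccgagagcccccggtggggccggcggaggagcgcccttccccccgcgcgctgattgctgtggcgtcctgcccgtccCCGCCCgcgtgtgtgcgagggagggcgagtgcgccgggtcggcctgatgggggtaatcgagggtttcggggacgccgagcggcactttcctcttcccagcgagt

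The BMPR2 window held 38 CpG dinucleotides and 76.7% G and C, against medians of 14 CpG and 58.7% over 35116 RefSeq promoters. It had 3 GC boxes and 1 GC-rich SMAD site. ACVR1B had 3 GC boxes and 4 GC-rich SMAD sites, of which 1 directly adjoined a GC box, with 56 CpG. TGFBR2 had 2 GC boxes and 1 CCAAT, with 23 CpG, and TGFBR3 had 2 GC boxes, with 34 CpG. The GC box was present in 44.95% of all promoters, CCAAT in 34.6%, the GC-rich SMAD site in 19.2% and the TEAD core in 14.03%. None of the 4 windows shown held the letters of the TEAD core, which occurred once each in the windows of ACVR2B and BMPR1A.

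The libraries held 18877964 to 24419937 reads in control and 16681280 to 18389543 with SAR, as recovered from the FPKM. Among all 16371 tested genes, 3885 (23.7%) were higher and 1563 (9.55%) were lower with SAR at an adjusted p-value under 0.05, from limma with Benjamini-Hochberg adjustment. Of the 10 receptors, 2 were higher and 2 were lower. With an added minimum of 2-fold, 3.41% of all genes were higher and 1.58% lower, and of the receptors 0 were higher and 1 was lower. The groups of 3 libraries did not overlap for 7 of the 10 receptors, against 50.7% of all tested genes. Of these, 3 were higher with SAR (35.5% of all genes) and 4 were lower (15.2%). Over all tested genes the median log2 fold change was 0.12 as deposited and 0.00 after median-ratio rescaling, in which every library is divided by its median ratio to the mean profile. After this rescaling 13.8% of all genes were higher and 15.5% lower, and 0 receptors were higher and 4 lower, namely BMPR2, TGFBR2, ACVR2B and ACVR1. Without overlap were then 5 of the 10 receptors, against 47.9% of all genes. The median log2 fold change of the 10 receptors was -0.03 as deposited and -0.15 after rescaling. Fold changes below are on the log2(FPKM + 0.1) scale, which makes the change of low genes smaller, and stand against the median gene at 0.12.

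**Figure D1:**
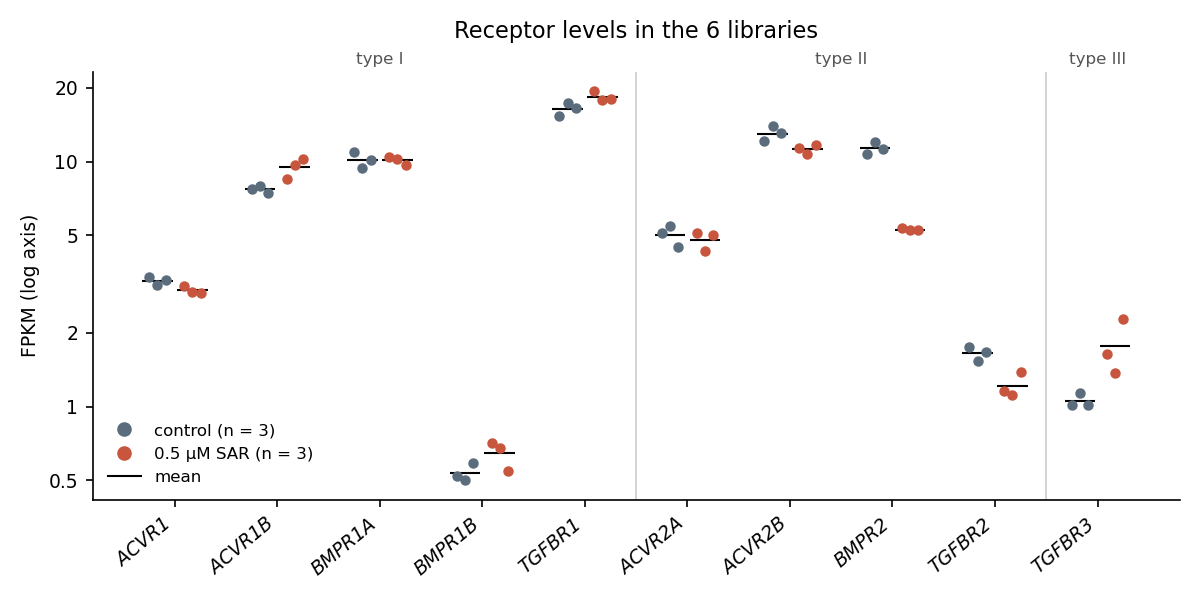
FPKM of the 10 receptors (log axis) in each control library (blue-grey points, n = 3) and each library with 0.5 µM SAR (red points, n = 3), with black lines at the group means. BMPR2 lay between 10.7 and 12.0 FPKM in control and between 5.23 and 5.33 with SAR, and TGFBR1 was the highest receptor in both groups.

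BMPR2 (ENSG00000204217), the type II receptor that is dedicated to BMPs and related growth factors, lies on chromosome 2, 202376936 to 202567751 (GRCh38, GENCODE 29), with 4 transcripts over 15 exon blocks. It was at 10.7, 12.0 and 11.3 FPKM in control replicates 1, 2 and 3 and at 5.33, 5.24 and 5.23 FPKM with SAR. The groups were far apart, and the SAR libraries were nearly equal. In bulk RNA, fewer cells with a receptor and less RNA per cell cannot be told apart. The mean fell from 11.3 ± 0.646 to 5.27 ± 0.0542 FPKM (SD, n = 3), a ratio of 0.466. The log2 fold change was -1.09 (standard error 0.0623, 95% interval -1.23 to -0.94, limma adjusted p = 0.000208). Of the 16371 tested genes, 2.27% had a log2 fold change as low as that of BMPR2 or lower. Reads recovered from the FPKM numbered 2663 to 3657 per control library and 1110 to 1204 per SAR library. The standard deviation between SAR libraries was 1.03% of the mean, below the 2.96% that counting error alone would give, and that between control libraries was 5.71%. After rescaling, the log2 fold change was -1.21 (limma, adjusted p = 0.000228). With a pseudocount of 1 it was -0.97, which is under 2-fold.

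The activin type II receptors differed by less. ACVR2B (ENSG00000114739, chromosome 3, 38453851 to 38493142), a receptor for activin and nodal that also binds BMPs, was at 12.09, 13.91 and 13.03 FPKM in control and 11.3, 10.7 and 11.7 FPKM with SAR. The SAR libraries were all lower than the control libraries. The log2 fold change of -0.21 (95% interval -0.37 to -0.04) did not pass as deposited (limma, adjusted p = 0.0609) and passed after rescaling, at -0.33 (adjusted p = 0.0216). ACVR2A (ENSG00000121989, chromosome 2, 147844517 to 147930826), its closest relative, was at 5.09, 5.46 and 4.49 FPKM in control and 5.09, 4.31 and 5.02 FPKM with SAR. The groups overlapped, and the difference of -0.06 on the log2 scale had an interval from -0.30 to 0.18 (limma, adjusted p = 0.671). In GENCODE 29, 7.98% of the exon bases of ACVR2A lie opposite to exons of other genes, mostly ORC4, and the strand setting of the counting is not given in the sources used here. None of the other 9 receptors shares exon bases with another gene in that annotation.

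TGFBR2 (ENSG00000163513, chromosome 3, 30606502 to 30694142), the type II receptor for TGF-beta, was at 1.75, 1.53 and 1.66 FPKM in control and 1.16, 1.11 and 1.39 FPKM with SAR. The groups did not overlap, with 215 to 263 reads per control library and 129 to 175 per SAR library. TGFBR2 fell by 0.41 on the log2 scale (standard error 0.125, 95% interval -0.71 to -0.11, limma adjusted p = 0.0434). The call was lost when any library but SAR replicate 3 was left out, with log2 fold changes from -0.46 to -0.35 and adjusted p-values up to 0.126. After rescaling TGFBR2 was at -0.53 (limma, adjusted p = 0.0195).

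**Figure D2:**
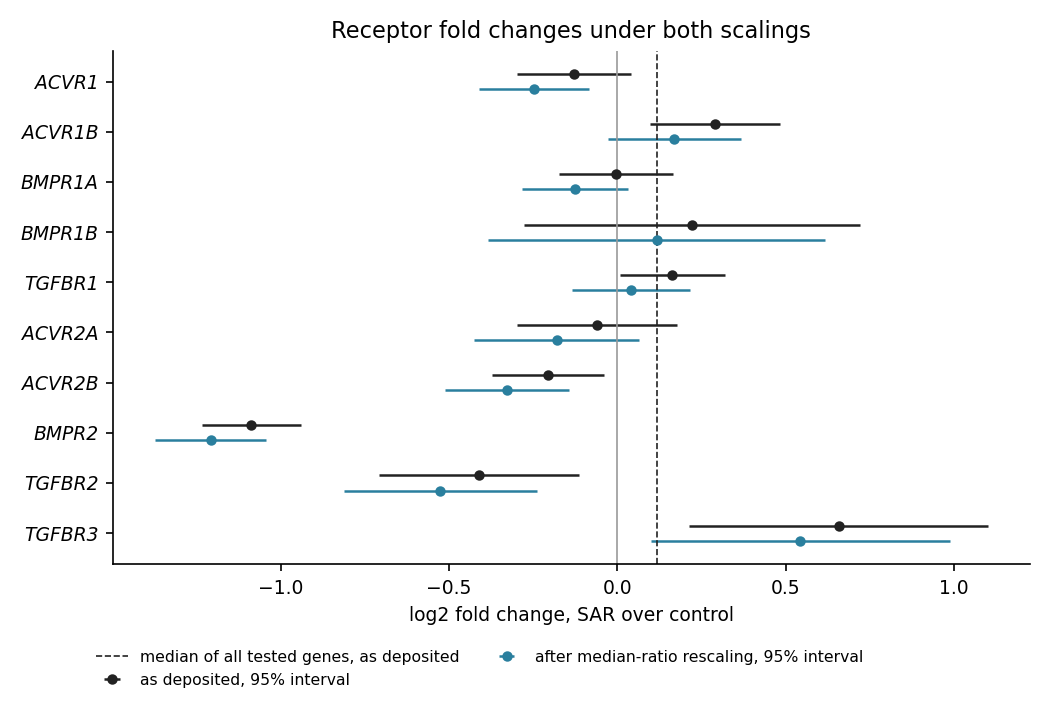
Log2 fold change of each receptor, SAR over control, with its 95% interval from limma (n = 3 against 3), as deposited (black) and after median-ratio rescaling (blue). The dashed line marks the median of all tested genes as deposited, 0.12. BMPR2 stood apart at -1.09 and -1.21.

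Of the type I receptors, ACVR1B (ENSG00000135503, chromosome 12, 51951667 to 51997078), the activin and nodal receptor, was at 7.72, 7.94 and 7.44 FPKM in control and 8.45, 9.70 and 10.2 FPKM with SAR. The SAR libraries were all higher than the control libraries, SAR replicate 1 by the smallest margin. ACVR1B rose by a log2 fold change of 0.29 (standard error 0.082, 95% interval 0.10 to 0.48, limma adjusted p = 0.0343). The call was lost after rescaling, at 0.17 (limma, adjusted p = 0.166), and when any library but SAR replicate 1 was left out (adjusted p up to 0.114). TGFBR1 (ENSG00000106799, chromosome 9, 99104038 to 99154192), the TGF-beta type I receptor, was at 15.4, 17.3 and 16.6 FPKM in control and 19.4, 17.9 and 18.0 FPKM with SAR. The groups did not overlap, but the log2 fold change of 0.16 (95% interval 0.01 to 0.32) did not pass (limma, adjusted p = 0.0956). It was close to the median of all genes, and at 0.04 after rescaling.

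The 3 type I receptors for BMPs gave no call as deposited. BMPR1A (ENSG00000107779, chromosome 10, 86756601 to 86932838) was at 10.9, 9.41 and 10.2 FPKM in control and 10.5, 10.2 and 9.72 FPKM with SAR. The difference was 0.00 on the log2 scale, with an interval from -0.17 to 0.16 (limma, adjusted p = 0.973), which does not reach the change of BMPR2. ACVR1 (ENSG00000115170, chromosome 2, 157736444 to 157875862) was at 3.37, 3.13 and 3.30 FPKM in control and 3.10, 2.94 and 2.90 FPKM with SAR, without overlap. Its log2 fold change of -0.13 (limma, adjusted p = 0.203) passed after rescaling, at -0.25 (adjusted p = 0.037). BMPR1B (ENSG00000138696, chromosome 4, 94757968 to 95158448) was the lowest receptor, at 0.522, 0.499 and 0.589 FPKM in control and 0.713, 0.675 and 0.547 FPKM with SAR. With 66 to 80 reads in each library, its log2 fold change of 0.22 had an interval from -0.28 to 0.72 (limma, adjusted p = 0.442). The data do not tell apart changes within that range.

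TGFBR3 (ENSG00000069702, chromosome 1, 91680343 to 91906335) was at 1.01, 1.14 and 1.02 FPKM in control and 1.64, 1.37 and 2.28 FPKM with SAR. The SAR libraries were all higher than the control libraries, and SAR replicate 3 was the highest. TGFBR3 rose by a log2 fold change of 0.66 (standard error 0.187, 95% interval 0.21 to 1.10, limma adjusted p = 0.0352). It had 165 to 239 reads per control library and 199 to 359 per SAR library. The standard deviation between SAR libraries was 26.5% of the mean, where counting error would give 6.15%. Without SAR replicate 3 the log2 fold change was 0.47 (limma, adjusted p = 0.0501), and the call was lost in each of the other reduced sets of libraries except without SAR replicate 2, at 0.81 (adjusted p = 0.0292). After rescaling it was 0.54 (limma, adjusted p = 0.0681), and it passed by voom on the recovered reads, at 0.59 (adjusted p = 0.0168).

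In the order of levels per gene length in control, TGFBR1 (16.4 ± 0.987 FPKM, SD, n = 3) was followed by ACVR2B, BMPR2, BMPR1A, ACVR1B, ACVR2A, ACVR1, TGFBR2, TGFBR3 and BMPR1B (0.537 ± 0.0469). The ranges of neighbours overlapped only for BMPR2 and BMPR1A. With SAR, BMPR2 was at rank 5, below ACVR1B and above ACVR2A, and TGFBR3 was above TGFBR2. There the ranges of BMPR1A and ACVR1B and of TGFBR3 and TGFBR2 overlapped. The order depended on the gene length used. The deposited FPKM of ACVR1 rest on a length of 9842 bases, 2.47 times the 3990 exon bases of GENCODE 29, and those of TGFBR2 on 1.46 times. With the same reads over GENCODE 29 lengths, ACVR1 would be at 8.05 FPKM in control, in place of 3.27, and at rank 5 in place of 7. Here and below, reads were not recounted over those exons, so values of genes with a longer deposited length may be too high. With SAR, these lengths put BMPR2 at rank 6, below ACVR1, and TGFBR2 (1.77 FPKM) next to TGFBR3 (1.73 FPKM), with overlapping ranges. The length does not enter a fold change between libraries, other than through the pseudocount.

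Shares within a library do not depend on the scaling between libraries, but they do depend on the gene lengths. BMPR2 held 36.1%, 36.4% and 37.0% of the summed FPKM of the 4 type II receptors in control and 23.3%, 24.5% and 22.4% with SAR, a difference of -13.1 percentage points. ACVR2B held 42.0% ± 1.01 in control and 49.9% ± 0.425 with SAR (SD, n = 3), and ACVR2A 16.2% ± 1.27 and 21.3% ± 1.06, while TGFBR2 held 5.34% ± 0.638 and 5.40% ± 0.483. The libraries did not overlap for BMPR2, ACVR2A and ACVR2B, and the exact two-sided permutation test gave p = 0.1 for each, the smallest that 3 libraries against 3 allow. With AMHR2 added to the type II sum, the differences were 4.09 points for ACVR2B, in place of 7.97, and 3.40 for ACVR2A, in place of 5.10. The shares of 1 type sum to 100, so they are not independent of each other. Among the type I receptors, ACVR1 had 8.57% ± 0.367 in control and 7.16% ± 0.187 with SAR, without overlap (exact permutation p = 0.1). With GENCODE 29 lengths its share was 19.6% ± 0.803 and 16.6% ± 0.404, also without overlap, and the difference for BMPR2 was again -13.1 points. For ACVR1B, BMPR1A, BMPR1B and TGFBR1 the shares overlapped. The summed type II FPKM was 31.0 ± 1.68 in control and 22.6 ± 1.02 with SAR, and the summed type I FPKM was 38.1 ± 0.205 and 41.6 ± 0.42. Unlike the shares, these sums depend on the scaling between libraries. As deposited, the median of all genes was also higher with SAR, by 0.12 on the log2 scale, so the small type I difference is not read as a rise.

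**Figure D3:**
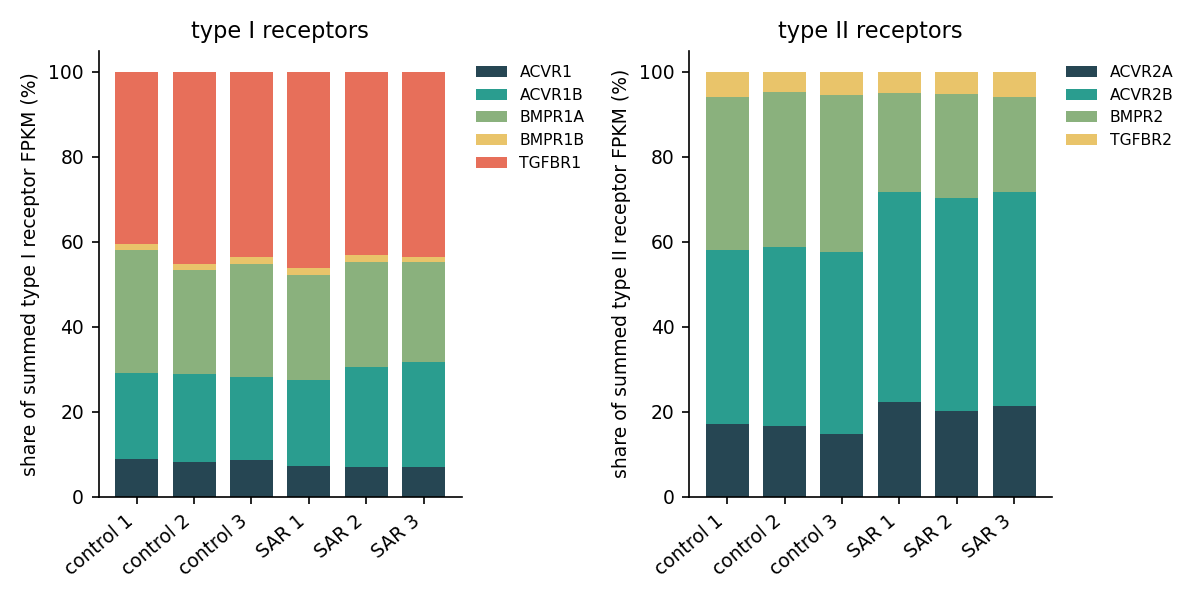
Share of each receptor in the summed FPKM of the type I receptors (left) and the type II receptors (right) in each of the 6 libraries, in percent. BMPR2 took 36.1% to 37.0% of the type II sum in control and 22.4% to 24.5% with SAR, and the type I composition differed less.

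The ratio of BMPR2 to ACVR2B was 0.883, 0.861 and 0.866 in control and 0.471, 0.487 and 0.447 with SAR, and that of BMPR2 to BMPR1A, with which it forms BMP receptor complexes, was 1.12 ± 0.147 and 0.52 ± 0.0159 (SD, n = 3). The ratio of TGFBR1 to TGFBR2 was 8.78, 11.3 and 9.98 in control and 16.8, 16.1 and 12.9 with SAR. The ratio of TGFBR3 to TGFBR2 was 0.645 ± 0.0888 in control and 1.43 ± 0.203 with SAR. Ratios between genes also depend on the lengths, and with those of GENCODE 29 the latter was 0.437 ± 0.0601 and 0.967 ± 0.138. None of these 4 ratios overlapped between the groups (exact two-sided permutation p = 0.1 each, the smallest possible, and 0.133 adjusted over 8 ratios). BMPR2 or TGFBR2 enters each of them, so they are not independent. In FPKM as deposited, 50.7% of all tested genes did not overlap either, but the like share for ratios was not computed. Among the 8 ratios, BMPR2 to ACVR2A and ACVR1B to ACVR1 also did not overlap, and TGFBR1 to ACVR1B overlapped (exact permutation p = 0.4). The ratio of the activin type II receptors, ACVR2B to ACVR2A, was 2.61 ± 0.266 in control and 2.35 ± 0.135 with SAR, and overlapped (exact permutation p = 0.2).

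By the root mean square difference of log2(FPKM + 0.1), centred on the control mean, over the 6 libraries, the genes most like BMPR2 among 12658 genes with a symbol and a mean of at least 1 FPKM were MXRA5 (0.0636), ST8SIA4 (0.0699) and STT3B (0.0731), a catalytic subunit of the oligosaccharyltransferase. STT3B was at 97.2, 126 and 108 FPKM in control and 51.0, 48.2 and 51.1 FPKM with SAR. The genes most like TGFBR2 were PLXND1, SASH1 and PTPRG, and those most like TGFBR3 were FREM2, PPP1R32 and SMIM24. ACVR1B was most like FBN3 (0.0169), a fibrillin, which was at 8.08, 8.07 and 7.71 FPKM in control and 8.89, 10.1 and 10.7 FPKM with SAR, followed by BRAT1 and ANKS6. These profiles describe 6 libraries in 2 groups.

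**Figure D4:**
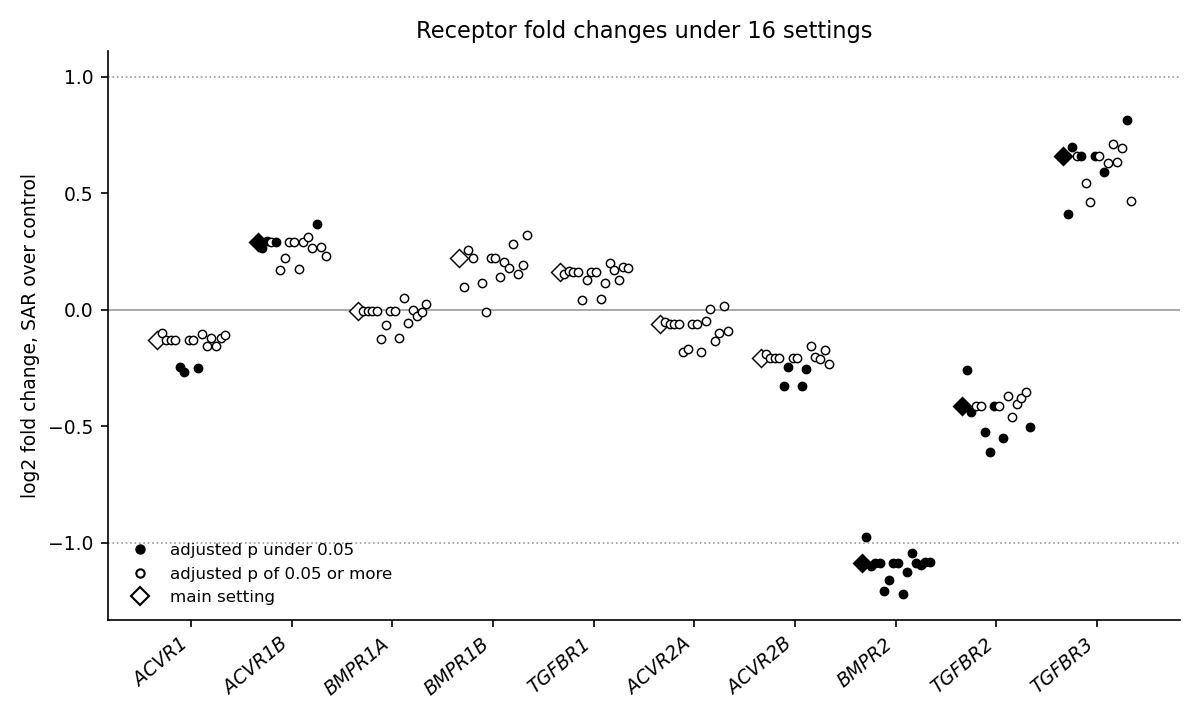
Log2 fold change of each receptor, SAR over control, under 16 settings of the analysis (diamond, the setting reported; circles, the alternatives), filled where the adjusted p-value from limma was under 0.05. BMPR2 was filled throughout, between -1.22 and -0.97, and the other receptors were filled in some settings or none.

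The remaining receptors and co-receptors of the superfamily gave 4 higher and 0 lower genes of 8 tested, against 23.7% and 9.55% of all genes. After rescaling 3 were higher and 0 lower, against 13.8% and 15.5% of all genes. AMHR2, the type II receptor of anti-Müllerian hormone, rose from 0.815 ± 0.191 to 2.49 ± 0.386 FPKM (SD, n = 3), or by 1.51 on the log2 scale (limma, adjusted p = 0.00239). TDGF1 (cripto), the co-receptor of nodal, was at 212 ± 2.16 FPKM in control, far above every kinase receptor, and rose by a log2 fold change of 0.20 (limma, adjusted p = 0.047), which was lost after rescaling, at 0.07. CFC1, the other EGF-CFC gene, was at 0.109, 0.343 and 0.222 FPKM in control and 2.37, 1.02 and 5.04 FPKM with SAR (log2 fold change 2.97, limma adjusted p = 0.00896). CFC1 has a near-identical copy, CFC1B, so its counts are uncertain. RGMA, a BMP co-receptor, rose from 2.51 ± 0.167 to 3.85 ± 0.119 FPKM, at 0.60 (limma, adjusted p = 0.0026). BAMBI, a pseudoreceptor without a kinase, was at 24.5 ± 0.6 and 24.0 ± 1.49 FPKM, with a log2 fold change of -0.03 (adjusted p = 0.752), and NEO1, RGMB and ENG did not pass, at 0.15, 0.04 and 0.46. The type I receptors ACVRL1 and ACVR1C and the BMP co-receptor HJV had means under 0.5 FPKM and were not tested.

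Of the activin, nodal and TGF-beta ligands, 1 was higher and 3 were lower of 7 tested, against 23.7% and 9.55% of all genes. After rescaling 0 were higher and 3 lower, against 13.8% and 15.5% of all genes. TGFB1, a ligand of TGFBR1 and TGFBR2, fell from 19.4 ± 0.253 to 13.6 ± 0.474 FPKM (log2 fold change -0.51, limma adjusted p = 0.00122). NODAL fell from 28.4 ± 0.625 to 19.9 ± 3.57 FPKM (-0.53) and GDF3 from 7.43 ± 1.01 to 3.05 ± 0.87 FPKM (-1.29). GDF11 was higher at 0.28, and did not pass after rescaling, at 0.16. INHBA, which encodes the subunit of activin A, was at 0.049 ± 0.0405 FPKM in control and 0.0552 ± 0.0151 with SAR and was not tested. Of 4 BMP ligands tested 2 were higher and 0 lower, against 23.7% and 9.55% of all genes. Rescaling left these 2 counts the same, against 13.8% and 15.5% of all genes. BMP7 rose from 2.26 ± 0.114 to 7.23 ± 0.597 FPKM (1.63, limma adjusted p = 0.000137) and BMP2 from 43.2 ± 3.09 to 63.7 ± 4.67 FPKM (0.56, adjusted p = 0.00327).

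Of 12 secreted antagonists tested, 3 were higher and 5 lower, against 23.7% and 9.55% of all genes. After rescaling 2 were higher and 6 lower, against 13.8% and 15.5% of all genes. LEFTY1, an antagonist of nodal, was at 317, 278 and 304 FPKM in control and 68.0, 70.6 and 80.3 FPKM with SAR (-2.04). CER1, which binds nodal and BMPs (4104 ± 534 to 1683 ± 35.4 FPKM, -1.28), and the BMP-binding TWSG1 (-0.50) and BMPER (-1.11) were also lower, while CHRD, which binds BMPs (0.274 ± 0.122 to 2.10 ± 0.228 FPKM, 2.60), and FST, which binds activin (17.7 ± 1.13 to 37.3 ± 9.78 FPKM, 1.04), were higher. Among 24 SMADs and receptor partners tested, 4 were higher and 7 lower, against 23.7% and 9.55% of all genes, and their median log2 fold change was 0.01. After rescaling 1 was higher and 7 were lower, against 13.8% and 15.5% of all genes, with a median of -0.10. The inhibitory SMAD6 was at 5.19, 5.86 and 5.36 FPKM in control and 1.21, 1.23 and 1.25 FPKM with SAR (-2.07, limma adjusted p = 7.96e-05). SMAD7, the other inhibitory SMAD, fell by 0.80 on the log2 scale and PMEPA1, an inhibitor induced by the pathway, by 1.41. SMAD2, a substrate of ACVR1B and TGFBR1, fell from 6.86 ± 0.468 to 4.44 ± 0.0909 FPKM (-0.61), and SMAD1, a substrate of the BMP type I receptors, rose from 1.88 ± 0.0589 to 2.72 ± 0.209 FPKM (0.51).

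Of 16 activin and nodal responsive genes, 11 were lower and 3 higher, against 9.55% and 23.7% of all genes. Their median log2 fold change was -0.67. After rescaling 12 were lower and 3 higher, against 15.5% and 13.8% of all genes, with a median of -0.79. GSC (-1.48) and EOMES (-1.36) were lower, and TBXT was higher, at 1.69. Of 11 tested BMP responsive genes, 6 were higher and 3 lower, against 23.7% and 9.55% of all genes, with a median of 0.45. The counts were the same after rescaling, against 13.8% and 15.5% of all genes, with a median of 0.33. ID3 rose from 22.0 ± 0.844 to 48.5 ± 2.98 FPKM (1.13, limma adjusted p = 0.000178), ID4 by 1.11 and ID1 by 0.74, while SMAD6 and SMAD7, which are also on this list, were lower. Over these 7 lists together, 23 genes were higher and 21 lower, against 23.7% and 9.55% of all genes. The lists share members, and each gene was counted once. The pooled number of genes tested was not recorded, so no share was taken from these counts.

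**Figure D5:**
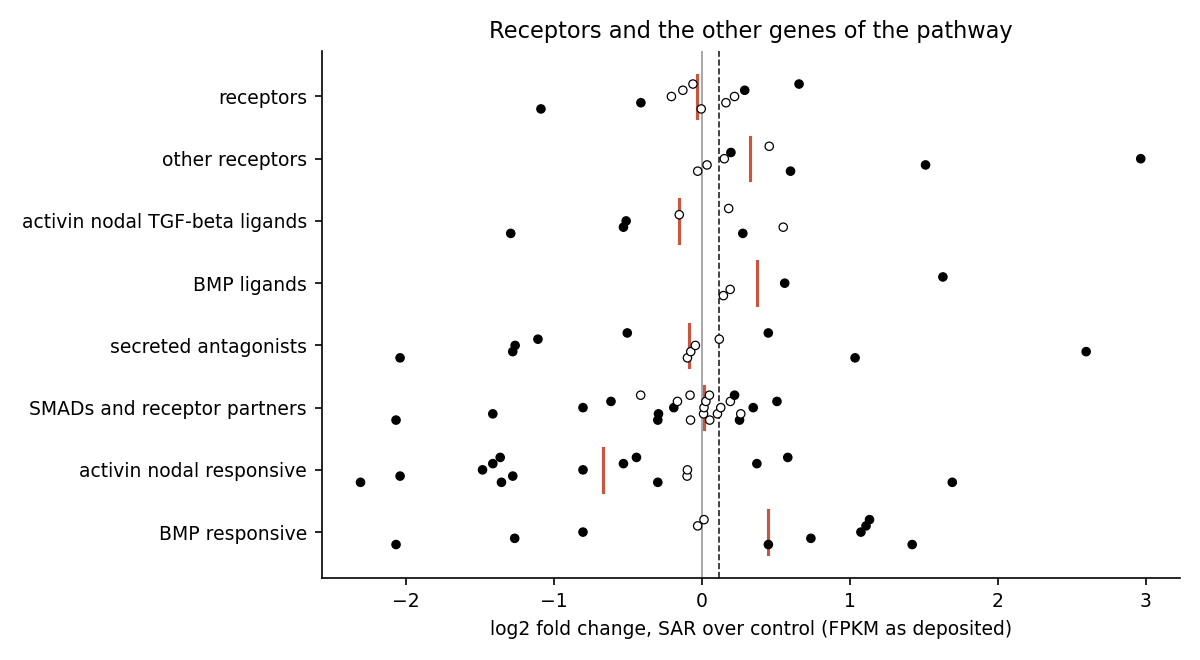
Log2 fold change, SAR over control, as deposited, of each tested gene of the receptor list and of 7 lists of other pathway genes, filled where the adjusted p-value from limma was under 0.05. Red lines are list medians, 0.45 for BMP responsive and -0.67 for activin and nodal responsive genes, and the dashed line is the median of all genes, 0.12.

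The libraries were checked against markers of cell types. All 12 DE markers were tested. With SAR 5 were higher, among them FOXA1 (2.54), FOXA2 (1.44) and KIT (0.98), and 6 were lower, among them GSC, EOMES and CER1. Of all genes, 23.7% were higher and 9.55% lower. The DE marker counts were the same after rescaling, against 13.8% higher and 15.5% lower of all genes. The summed FPKM of the DE markers was 3975 to 5081 in control and 2101 to 2154 with SAR, most of it CER1. Of the pluripotency markers NANOG was lower (-1.30) and SOX2 higher (0.88), and the sum was 243 to 364 FPKM in control and 360 to 376 with SAR. Its largest part was POU5F1, at 181 ± 40.9 and 219 ± 4.43 FPKM (SD, n = 3), which did not pass (limma, adjusted p = 0.167). Of the mesoderm markers, TBXT and TBX6 were higher and MIXL1 and KDR lower, and the sum of 10 genes was 62.9 to 65.7 and 39.0 to 51.3 FPKM. Summed FPKM was 1.60 to 3.95 and 3.32 to 3.69 for 6 neural ectoderm markers, 0.981 to 1.85 and 2.13 to 3.53 for 6 trophoblast or amnion markers, of which GATA3 was higher (1.08), and 1.54 to 3.25 and 1.65 to 1.84 for 4 endothelial or blood markers. No marker was at 0 in all 6 libraries. The part of these shifts in the receptor levels was not tested.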

How the data were processed

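RNA-seq of 3 control and 3 SAR libraries was analysed. Groups and replicate numbers came from the sample titles, and each table column matched 1 sample. Per the submitters' processing notes, HISAT2, featureCounts (Subread) and DESeq2 were used on GRCh38.p13; versions and the annotation release are not given in the sources used here. The authors deposited FPKM for 40396 genes, unpooled and without scaling between libraries beyond the total. Symbols (30235 table genes had one) and positions were taken from the reference tables, the positions from GENCODE 29 on GRCh38. Read counts were recovered from the FPKM: ratios between library totals from the commonest ratio of low values, the absolute size from GENCODE 29 exon lengths, and for each gene a whole-number length that made all 6 values whole within 0.005 reads, or a 3e-07 share of large counts. This succeeded for 16370 of 16371 tested genes and gave totals of 18877964 to 24419937 reads in control and 16681280 to 18389543 with SAR. Counting errors cover counting only.

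FPKM are not counts, so the test was limma 3.58.1 (R 4.3.3; lmFit, eBayes with trend) on log2(FPKM + 0.1) for genes averaging 0.5 FPKM or more, without a replicate block, with Benjamini-Hochberg adjustment over all 16371 genes. Shares and ratios used exact permutation tests (scipy 1.17.1). Median-ratio rescaling divided each library by its median ratio to the gene-wise geometric mean. Promoters came from RefSeq (GRCh38.p14); all 10 receptors matched. The test was checked on simulated data with planted changes larger than those of the receptors, so the check does not cover changes of their size. The receptors, lists and tests were chosen with earlier results of these data known. Genes outside the receptors were named by rule: all members of the list of other receptors, up to 6 genes with the smallest adjusted p-values in each other list, and the 3 most alike of each receptor past the test. INHBA falls outside that rule and was named after its values were seen. A gene that the rule names is not reported here.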

Additional observations from a re-analysis of the deposited data

How the results depend on the processing

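BMPR2 passed the limma test as lower under all 15 alternatives, with log2 fold changes from -1.22 to -0.97 and adjusted p-values from 5.78e-07 to 0.00274, and it was under 2-fold only with a pseudocount of 1, which left 0 receptors past 2-fold. The count of 2 higher receptors was 0 with no filter on low values, after median-ratio rescaling, after quantile normalization and with the replicate block, 1 without the intensity trend and with voom on recovered reads, and 0 to 1 with 1 library left out. The count of 2 lower receptors was 1 with no filter, with a minimum mean of 1 FPKM (where BMPR1B was not tested) and with the replicate block, 4 after median-ratio rescaling, after quantile normalization and with voom, and 1 to 2 with 1 library left out. The cause of these shifts was not tested, other than that no filter tests more genes and leaving out a library leaves fewer samples. Of all genes, 23.7% were higher and 9.55% lower as reported, and 6.75% and 2.85% with no filter. The shares were 26.4% and 11.1% with the 1 FPKM minimum, 22.1% and 8.14% without the trend, and 20.8% and 8.84% with the block. They were 13.8% and 15.5% after median-ratio rescaling, 14.8% and 14% after quantile normalization, and 16.7% and 17.8% with voom. With 1 library left out, 12.9% to 23% were higher and 5.06% to 11.2% lower. The log2 fold changes that reversed belonged to genes without a call: BMPR1A, from -0.057 to 0.049 with 1 library left out, ACVR2A, from -0.13 to 0.015 likewise, BMPR1B, at -0.011 after quantile normalization, and RGMB, at -0.083 after rescaling, an alternative added after seeing the data. With AMHR2, ACVRL1 and ACVR1C added to their types, the differences in share were -14.5 points for BMPR2, 4.09 for ACVR2B and 3.40 for ACVR2A. The difference in share of TGFBR2, 0.051 points, was -0.34 with these genes added and -0.29 to 0.34 with 1 library left out. That of ACVR1 was -2.97 points with GENCODE 29 lengths, added after seeing the data.

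Over all genes, the 3885 higher and 1563 lower calls became 2259 and 2538 after median-ratio rescaling, 2429 and 2289 after quantile normalization, 2741 and 2918 with voom, and 2129 and 833 without control replicate 3. The 559 and 259 calls past 2-fold became 169 and 141 with a pseudocount of 1. The replicate numbers are not stated to pair the samples. Deviations of same-numbered libraries correlated at 0.0729, 0.00286 and 0.0248 for replicates 1, 2 and 3, and not every library correlated best with its own number. The replicate block gave 3400 higher and 1448 lower genes, with BMPR2 at an adjusted p = 0.00205 (limma), TGFBR2 at 0.0698, ACVR1B at 0.0521 and TGFBR3 at 0.0549. BMPR1B rests on 66 to 80 reads per library.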
